A study of Mus musculus with 13 samples.

Results

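The matrix metalloproteinases and their tissue inhibitors were examined as 10 transcripts in mouse lung, 6 proteases (Mmp2, Mmp3, Mmp9, Mmp12, Mmp14 and Mmp19) and 4 inhibitors (Timp1, Timp2, Timp3 and Timp4). The members were taken by symbol from a count table of 32544 gene symbols, and all 10 were found. The libraries came from lungs of wild-type C57BL/6J male mice, bought at 7 weeks of age, that breathed 21% oxygen (normoxia, n = 7 libraries) or 80% oxygen (hyperoxia, n = 6 libraries) for 5 days. The lungs were flushed with cold buffered saline before freezing, no group carried another allele or agent, and each library holds the RNA of a piece of whole lung, so that no cell type was separated. RNA was measured by Quant-seq, which sequences one short fragment at the 3′ end of each polyadenylated transcript. The labels do not say that each library is a separate mouse, and p-values then measure the spread between these libraries.

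Matrix metalloproteinases are zinc enzymes that cut collagens, elastin, proteoglycans and many signalling proteins of the extracellular matrix. Most are secreted as inactive proenzymes, and their activity is set by cleavage of the propeptide and by TIMPs, small proteins that block the active site in a tight complex with a single enzyme molecule. In lung they are known from development, emphysema, fibrosis and acute injury. Transcript counts do not measure proenzyme cleavage or enzyme activity.

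Total counts ranged from 1607111 to 3387736 in normoxia and from 2029006 to 4540288 in hyperoxia, so that 3 counts, used here as the detection floor, corresponded to between 0.656 and 1.84 CPM, the count of a gene relative to the total of its library. Totals were scaled by trimmed mean of M values (TMM). Of the 12496 genes that passed the filter on low counts, 22.6% differed between the groups at an adjusted p under 0.05 in edgeR's quasi-likelihood test, 11.8% higher and 10.8% lower in hyperoxia. The median log2 fold change over these genes was -0.03. Hyperoxia replicate 1 stood apart: its mean correlation with the other libraries was 0.779, and its 5 alveolar type 2 cell markers summed to 214 CPM, where normoxic libraries held 5690 to 14878 CPM and the other hyperoxic libraries up to 3799 CPM. Results that rest on it are given with and without it.

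Among the 6 proteases, 3 were higher in hyperoxia (Mmp3, Mmp14 and Mmp19), 1 was lower (Mmp12) and 2 did not pass the test (Mmp2 and Mmp9). Among the 4 inhibitors, 2 were higher (Timp1 and Timp3), none was lower and 2 did not pass (Timp2 and Timp4). All 10 passed the filter, but Mmp9 did so through the normoxic libraries and Timp1 through the hyperoxic libraries. Without hyperoxia replicate 1 the counts were the same, but the lower protease was Mmp9 in place of Mmp12. Of all genes tested, 11.8% were higher and 10.8% lower. The median log2 fold change was 0.66 for the proteases and 0.64 for the inhibitors. Mmp3 and Timp1 also passed a log2 fold change of 1.5, as did 1.55% of all genes in the upward direction, and no member passed -1.5, as 2.35% of all genes did. In Mmp3 and Timp3, 2 of the 10 members, every hyperoxic library lay above every normoxic library, as for 5.6% of all genes. No member had every hyperoxic library below every normoxic library, as 5.23% of all genes did, and groups did not overlap in either direction for 10.8%. Since the tissue is whole lung, fewer cells of a type and less RNA per cell cannot be told apart.

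**Figure D1:**
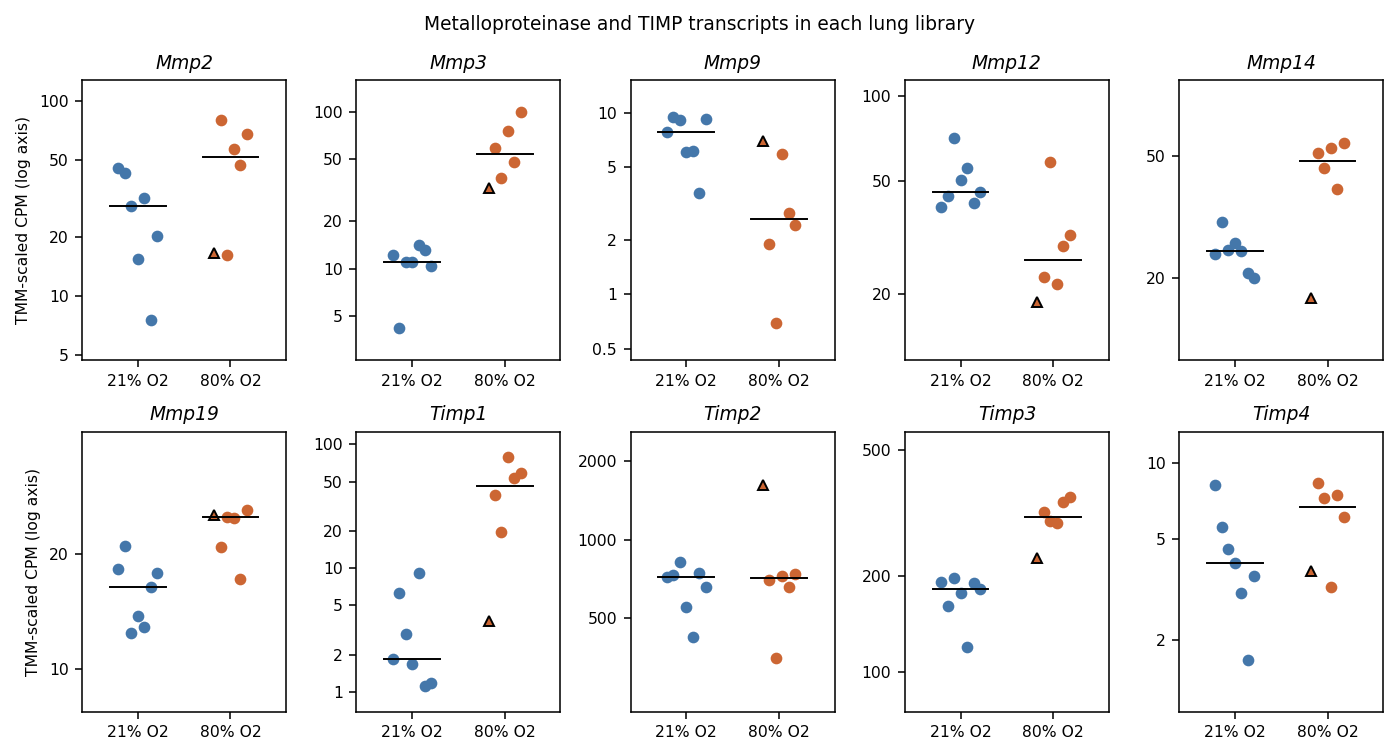
TMM-scaled CPM of the 6 proteases and 4 inhibitors in each library, on log axes that differ between panels. Points are libraries (7 at 21% O2, blue, and 6 at 80% O2, orange), lines are group medians, and the triangle is hyperoxia replicate 1, which lies within the normoxic range for Timp1, below it for Mmp14 and above it for Timp2.

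Mmp3, or stromelysin 1, cleaves proteoglycans, laminin and fibronectin and activates other proMMPs. It lies at chr9:7445822-7455975 on the plus strand (GRCm38, GENCODE M21), in a cluster of MMP genes that also holds Mmp12 at chr9:7344381-7369499. Normoxic libraries held 4.19 to 14.1 CPM of Mmp3 with a median of 11.1, and hyperoxic libraries held 32.7 to 98.8 CPM with a median of 53.4. All 6 hyperoxic libraries lay above all normoxic libraries, hyperoxia replicate 1 being the lowest of them. The mean rose from 10.9 ± 3.22 to 58.6 ± 25.0 CPM (SD, n = 7 and 6), or by 2.44 ± 0.29 on the log2 scale (SE, adjusted p = 2.52e-05). When each library in turn was left out, the estimate stayed between 2.23 and 2.57.

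Mmp12, macrophage elastase, cuts elastin and is made mainly by macrophages. It was present at 40.7 to 71.0 CPM in normoxia (median 45.8) and at 18.8 to 58.7 CPM in hyperoxia (median 26.4). Hyperoxic libraries lay below every normoxic library in 5 of 6 cases, and the exception was hyperoxia replicate 3 with 58.7 CPM. The mean fell from 49.98 ± 10.6 to 30.7 ± 14.6 CPM (log2 fold change -0.69 ± 0.24, adjusted p = 0.0498). This call stood at the threshold: it was lost in 12 of the 13 fits that left out 1 library, with adjusted p up to 0.123, and kept without hyperoxia replicate 3 (log2 fold change -0.96, adjusted p = 0.0020). Within both sets of libraries defined by the letters in their names, described under the processing steps, Mmp12 was lower in hyperoxia, by -0.79 and -0.65 on the log2 scale.

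The estimates of the neighbouring genes Mmp3 and Mmp12 had opposite signs, with the Mmp12 call at the threshold. Mmp3 counts were 0.0945 to 0.313 times the Mmp12 counts in normoxic libraries and 0.645 to 3.46 times in hyperoxic libraries, and 6 of 6 hyperoxic ratios lay above the normoxic range. Mmp3 alone did not overlap between the groups, so this ratio is no separate support for a fall of Mmp12. The promoters of Mmp3 and Mmp12 were compared because both hold 2 short letter patterns, of the kind AP-1 and the TATA-binding protein are known to bind. The pair was picked for these matches, so the sharing itself is no result. In the RefSeq promoters (GRCm38.p6, 250 bases before to 50 after the start site), which were present for 7 of the 10 members, the letters TGANTCA and TATAAA were searched on both strands. Mmp3 and Mmp12 were the members in whose promoters either was found, and they held both. Of all 32841 promoters, 7.81% held the former and 13.6% the latter. The windows below are plus-strand, 5′ to 3′, with the matching letters in capitals. The Mmp3 windows are chr9:7445765-7445794 and chr9:7445803-7445832, with the matches at -46 and -7 from the start site, and the Mmp12 windows, from the second of its 2 promoters, are chr9:7347319-7347348 and chr9:7347366-7347395, with the matches at -44 and 4.
Mmp3, TGANTCA: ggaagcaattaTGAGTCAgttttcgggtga
Mmp12, TGANTCA: gacatcaacagTGAGTCAgatagaggattt
Mmp3, TATAAA: acacaaccactcTATAAAagttgggcttaa
Mmp12, TATAAA: gtactagggttaTATAAAgtggggctttaa
The same 7 letters, TGAGTCA, stood in both TGANTCA windows, at nearly the same distance from the start site. Mmp3 was called higher, and the lower call of Mmp12 stood at the threshold. A match of letters is a description and not a measured binding site, and the TATAAA match of Mmp12 began after the start site.

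Macrophage markers moved in more than one direction beside Mmp12, where 11.8% of all genes tested were higher and 10.8% lower. Of 9 alveolar macrophage markers tested, 5 were lower and 1 was higher in hyperoxia (median log2 fold change -1.10), led by Ear1 (10.6 ± 2.86 to 1.16 ± 1.69 CPM) and Ear2 (45.1 ± 12.8 to 10.6 ± 8.58 CPM). Ear1 passed the filter through the normoxic libraries, and its hyperoxic libraries held 0 to 16 counts, in part under the detection floor. For Ear1, Ear2 and Siglecf, 6 of 6 hyperoxic libraries lay below every normoxic library, as for 5.23% of all genes. The higher one was Mrc1, the mannose receptor, which rose from 94.2 ± 20.7 to 155 ± 24.7 CPM (adjusted p = 0.0041) and lay above the normoxic range in 6 of 6 hyperoxic libraries. Without hyperoxia replicate 1, Chil3 was also higher (log2 fold change 1.02, adjusted p = 5.19e-04). Their summed level, in which Chil3 was abundant, ranged from 374 to 489 CPM in normoxia and from 191 to 733 CPM in hyperoxia, and none was at 0 in all libraries. Of 9 monocyte and recruited macrophage markers tested out of 10, 3 were higher (Gpnmb, Trem2 and Spp1) and 2 were lower (Ly6c2 and Ccr2), with sums of 725 to 1065 and 574 to 1452 CPM, and 4 were lower without hyperoxia replicate 1. Leaving out 1 library gave 3 to 5 lower alveolar macrophage markers. The 5 lower ones were not tested where at least 10 counts were required in every library. The part of macrophage markers in the Mmp12 result was not tested.

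Mmp14 encodes membrane type 1 MMP, a cell-surface collagenase that activates proMMP2 with TIMP2 as a bridge, and lies at chr14:54431612-54445364. Its level was 19.9 to 30.4 CPM in normoxia (median 24.5) and 17.2 to 55.3 CPM in hyperoxia (median 48.3). Of the hyperoxic libraries, 5 were above every normoxic library, and hyperoxia replicate 1 was below all of them. The log2 fold change was 0.85 ± 0.22 (24.3 ± 3.48 to 43.6 ± 14.2 CPM, adjusted p = 0.0110), and 1.03 (adjusted p = 5.53e-05) without hyperoxia replicate 1. It was past the threshold in all 13 fits that left out 1 library, and not past it when limma was run on log CPM (0.67, adjusted p = 0.0616) or with a block on replicate number (0.75, adjusted p = 0.0815).

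Mmp2, gelatinase A, is a product of fibroblasts and other mesenchymal cells and the main proenzyme that membrane type 1 MMP activates. It lies at chr8:92827291-92853420. Normoxic libraries held 7.53 to 45.5 CPM (median 29.1) and hyperoxic libraries 16.3 to 79.7 CPM (median 51.9), so that the ranges overlapped. Its log2 fold change, 0.80 ± 0.42, was not past the threshold (adjusted p = 0.187, 95% interval -0.08 to 1.69). Without hyperoxia replicate 1 it was 0.99, closer to the threshold but not past it (adjusted p = 0.0598). Mmp2 differed between the letter sets. The log2 difference was -0.14 in the libraries B to M, which include hyperoxia replicate 1, and 2.13 in the libraries O to S. The Mmp2 to Mmp14 count ratio overlapped throughout, at 0.365 to 1.91 in normoxia and 0.359 to 1.56 in hyperoxia.

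Mmp9, gelatinase B, is stored in neutrophil granules and also made by macrophages and epithelium. It lies at chr2:164940780-164955850 and was scarce, with 10 to 31 counts per normoxic library and 2 to 22 per hyperoxic library. These were 3.62 to 9.43 CPM (median 7.84) and 0.695 to 6.97 CPM (median 2.61), the lowest of them under the detection floor. Of 6 hyperoxic libraries, 4 lay below every normoxic library. The log2 fold change of -1.12 ± 0.41 missed the threshold (adjusted p = 0.0606, 95% interval -1.99 to -0.25). Without hyperoxia replicate 1, which had the highest hyperoxic value, it was -1.36 with adjusted p = 0.0157. Mmp9 passed in 3 of the 13 fits that left out 1 library, with log2 fold changes from -1.36 to -0.88 and adjusted p up to 0.133. DESeq2 on all 13 libraries gave an adjusted p of 0.0342, and over the 7 other settings run, DESeq2 included, it was 0.0306 to 0.183, with 4 of 7 past the threshold.

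Mmp19 encodes a secreted MMP of many tissues that cleaves basement membrane components. It lies at chr10:128790910-128800824. Its level was 12.4 to 21.0 CPM in normoxia (median 16.4) and 17.2 to 26.0 CPM in hyperoxia (median 24.9), with 4 of 6 hyperoxic libraries above all normoxic libraries. The log2 fold change of 0.52 ± 0.18 was just past the threshold (adjusted p = 0.0468) and remained past it in 4 of the 13 fits that left out 1 library. Of 8 other settings run on its own counts, 6 lost the call, with adjusted p from 0.0538 to 0.124. Its counts are uncertain, because every one of the 470 stretches of 31 bases in the last 500 bases of its main transcript also occurs, on the opposite strand, in Tmem198b, and whether the counting used strand is not stated in the sources used here. Tmem198b, named because of this overlap after its values were seen, was counted at 30.7 ± 3.18 CPM in normoxia and 103 ± 46.7 in hyperoxia. Summed over both genes, the level was 46.8 ± 3.83 and 126 ± 47.1 CPM, with a log2 change of 1.43 ± 0.21 (adjusted p = 1.61e-04). Tmem198b makes up most of that sum, which is no separate support for the Mmp19 call.

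Timp1 showed the largest fold change of the 10 transcripts. The protein blocks most secreted MMPs but is a weak inhibitor of membrane type 1 MMP, and its gene is known for its strong response to injury. It lies at chrX:20870166-20874735 inside an intron of Syn1, without shared exonic bases. Normoxic libraries held 1.11 to 9.19 CPM (median 1.87, from 4 to 18 counts), and hyperoxic libraries held 3.75 to 78.9 CPM (median 46.2, from 7 to 293 counts). Of the hyperoxic libraries, 5 lay above every normoxic library, at 19.5 CPM or more, and hyperoxia replicate 1, with 7 counts, lay within the normoxic range. Timp1 passed the filter through the hyperoxic libraries, and was not tested where at least 10 counts were required in every library. The mean rose from 3.47 ± 3.09 to 42.2 ± 27.4 CPM, which was 3.73 ± 0.59 on the log2 scale (adjusted p = 3.38e-04). It was 4.00 without hyperoxia replicate 1 and between 3.46 and 4.10 over all fits that left out 1 library. The log2 difference was 1.82 among the libraries B to M, which include hyperoxia replicate 1, and 5.13 among the libraries O to S.

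Timp3 is the inhibitor that binds to the extracellular matrix, and besides MMPs it blocks ADAM17 and aggrecan-cleaving ADAMTS enzymes. Its level was 120 to 197 CPM in normoxia (median 183) and 228 to 357 CPM in hyperoxia (median 309), with no overlap between the groups. Hyperoxia replicate 1 was the lowest of the hyperoxic libraries. The mean rose from 174 ± 26.6 to 306 ± 45.7 CPM, by 0.81 ± 0.14 on the log2 scale (adjusted p = 8.24e-04), and every fit that left out 1 library gave between 0.76 and 0.90. Timp3, at chr10:86300372-86349506 on the plus strand, lies inside Syn3, at chr10:86055125-86498896 on the minus strand, and the genes share 1733 exonic bases. All 470 stretches of 31 bases in the last 500 bases of its main transcript occur on the opposite strand of Syn3.

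Syn3 encodes a synapsin, a family of synaptic vesicle proteins of neurons, and its symbol carried far more counts than Timp3 in every library. It went from 1466 ± 124 to 2802 ± 484 CPM (log2 fold change 0.93 ± 0.14, adjusted p = 1.91e-04), 6.91 to 16.1 times the Timp3 counts, with the highest ratio in hyperoxia replicate 1. The other synapsin genes that hold a TIMP gene were low: Syn1 had at most 2 counts in a library, and Syn2, which holds Timp4, was at 15.3 ± 3.62 and 13.8 ± 5.51 CPM (adjusted p = 0.749). The part of the Syn3 counts that came from Timp3 transcripts cannot be told apart in a gene-level table. With both symbols summed, the level went from 1641 ± 145 to 3108 ± 447 CPM, with a log2 fold change of 0.92 ± 0.13 (adjusted p = 1.57e-04). Syn3 makes up most of that sum, so the sum is no separate support for the Timp3 call.

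Timp2, the inhibitor that bridges membrane type 1 MMP and proMMP2, had the highest CPM of the 4 inhibitor symbols. It lies at chr11:118301069-118355740 on the minus strand. It spanned 423 to 818 CPM in normoxia (median 717) and 352 to 1616 CPM in hyperoxia (median 711), so the medians lay close together. The highest value belonged to hyperoxia replicate 1 and was apart from the other 5, which reached 736 CPM. The log2 fold change was 0.26 ± 0.27 (adjusted p = 0.525, 95% interval -0.30 to 0.83), and -0.06 without that library.

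Timp4, an inhibitor best known from heart, lies at chr6:115241892-115252205 inside Syn2, with 90 exonic bases shared. It was scarce, with normoxic libraries at 1.67 to 8.21 CPM (median 4.04) and hyperoxic ones at 3.23 to 8.31 CPM (median 6.71). The ranges overlapped, and the estimate, 0.46 ± 0.35 on the log2 scale, was not past the threshold (adjusted p = 0.374, 95% interval -0.27 to 1.2). These values rest on 5 to 28 counts per library.

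**Figure D2:**
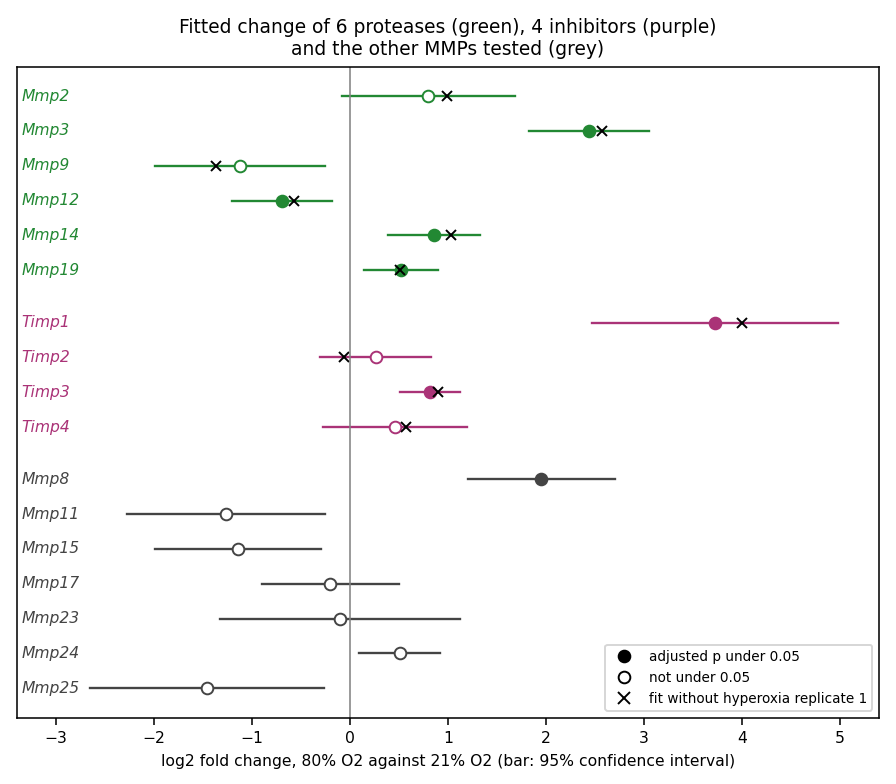
Log2 fold changes of hyperoxia over normoxia from edgeR's quasi-likelihood fit, with 95% confidence intervals, for the 6 proteases, the 4 inhibitors and the 7 other MMP genes tested. Filled points are past an adjusted p of 0.05 and crosses are the fits without hyperoxia replicate 1, which moved Timp2 from 0.26 to -0.06 and Timp1 from 3.73 to 4.00.

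The proteases and the inhibitors were then set against each other in each library. The 6 proteases summed to 103 to 157 CPM in normoxia and 117 to 283 CPM in hyperoxia, and 5 of 6 hyperoxic libraries were above all normoxic libraries. The 4 inhibitors summed to 556 to 1022 CPM and to 676 to 1852 CPM, again with 5 of 6 above. Both classes thus had higher sums in most hyperoxic libraries. The log2 ratio of summed inhibitors to summed proteases was 1.94 to 3.19 in normoxia (median 2.63) and 1.88 to 3.98 in hyperoxia (median 2.19), and the groups overlapped. The means differed by -0.16, against SDs of 0.371 and 0.772. Hyperoxia replicate 1 had the highest ratio of all libraries, and without it the difference was -0.46. The direction depended on how genes were weighted: with the mean of log2 CPM over the genes of each class, where Timp1 and Timp2 weigh alike, the difference was 0.75 in favour of the inhibitors, and 0.80 without hyperoxia replicate 1. With Timp2 left out of the sums it was 0.38, and 0.34 without that library. With Mmp3 left out it was 0.19, which turned to -0.12 without hyperoxia replicate 1. Among the libraries B to M it was 0.19, which turned to -0.46 without hyperoxia replicate 1, and among the libraries O to S it was -0.73. With Syn3 counts added to Timp3 it was 0.20, and with the 17 other MMP genes added to the proteases it was 0.11, which turned to -0.06 and -0.13 without hyperoxia replicate 1. No test was made on these sums, since their members were chosen with the results known.

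The make-up of each class also differed between the groups. Mmp3 made up 2.76 to 12.7% of the protease counts in normoxia and 20.6 to 35.0% in hyperoxia, higher in 6 of 6. Mmp12 made up 27.4 to 45.1% in normoxia and 9.17 to 31.9% in hyperoxia, and 5 of 6 hyperoxic libraries lay below the normoxic range. Among the inhibitor counts, Timp1 went from between 0.118 and 1.65% to between 0.203 and 7.18%, and Timp3 from between 17.9 and 24.0% to between 12.3 and 44.0%. Timp2 made up 75.2 to 80.8% in normoxia. In hyperoxia it made up 52.0 to 87.3%, with 5 of 6 libraries below the normoxic range and hyperoxia replicate 1 above it. These shares take the Timp3 counts as deposited. With the Syn3 counts added to them, Timp2 made up 23.3 to 32.3% in normoxia and 9.53 to 29.3% in hyperoxia, below the normoxic range in 5 of 6 libraries.

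**Figure D3:**
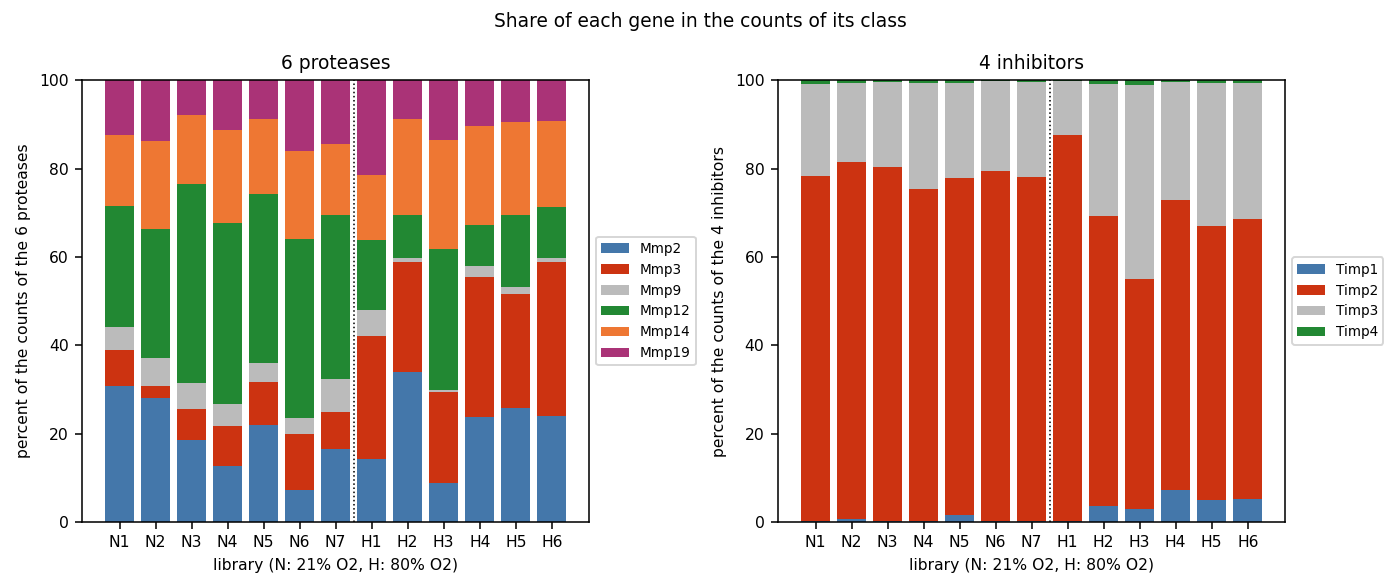
Share of each gene in the counts of the 6 proteases (left) and of the 4 inhibitors (right) in each library, N1 to N7 at 21% O2 and H1 to H6 at 80% O2. The Mmp3 share is above 20% in every hyperoxic library and below 13% in every normoxic library, while H1 differs from the other hyperoxic libraries in its Timp2 share of 87.3%, with Syn3 counts not included.

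Pairs of an inhibitor and an enzyme that are known to meet gave different pictures. For TIMP1 and MMP9, which bind each other as proenzyme and inhibitor, Timp1 counts were 0.129 to 1.5 times the Mmp9 counts in normoxia and 0.538 to 28.0 times in hyperoxia, above the normoxic range in 5 of 6 libraries. The 28.0 rests on 2 Mmp9 counts in hyperoxia replicate 3, under the detection floor, and the next highest ratio was 24.5. Timp1 passed the filter through the hyperoxic libraries and Mmp9 through the normoxic libraries. The ratio restates these 2 genes and is no separate support for a change in either. For Timp2 and Mmp14 the ratio was 17.3 to 36.2 in normoxia. In hyperoxia it was 7.73 to 94.2, with 5 of 6 libraries below the normoxic range and hyperoxia replicate 1 above it. Timp1 and Mmp3, which both rose, had overlapping ratios, 0.0851 to 1.5 in normoxia and 0.115 to 1.12 in hyperoxia.

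**Figure D4:**
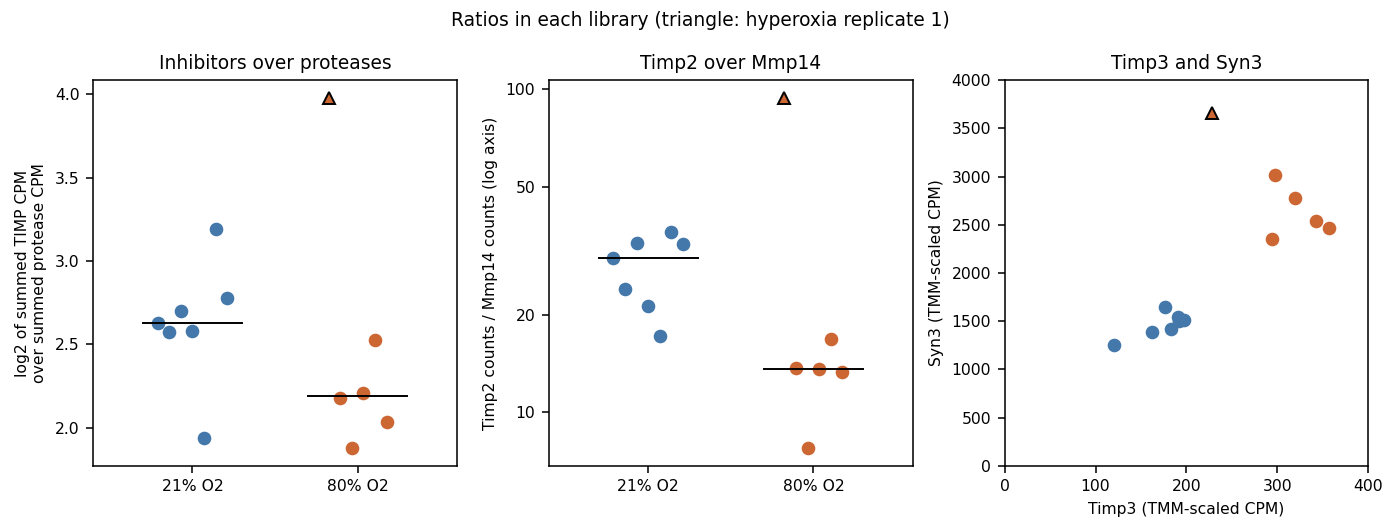
Log2 ratio of summed inhibitor to summed protease CPM (left), Timp2 counts over Mmp14 counts on a log axis (middle) and Syn3 against Timp3 in CPM (right), with 1 point per library, 21% O2 in blue and 80% O2 in orange. Lines are medians, and hyperoxia replicate 1 (triangle) has the highest value of both ratios, 3.98 and 94.2, and the highest Syn3 level.

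Of 17 other MMP genes in the table, 7 passed the filter, and 1 of them, Mmp8, was higher while none was lower (median log2 fold change -0.20). Among all genes tested the shares were 11.8% higher and 10.8% lower. Mmp8 encodes neutrophil collagenase. It passed the filter through the hyperoxic libraries, with 3 to 15 counts in normoxic libraries, and was not tested where at least 10 counts were required in every library. It rose from 2.84 ± 1.05 to 11.2 ± 5.07 CPM (log2 fold change 1.95 ± 0.35, adjusted p = 9.76e-04), with 5 of 6 hyperoxic libraries above all normoxic libraries. The membrane-bound Mmp15 and Mmp24 and the secreted Mmp11 did not pass the test, with log2 fold changes of -1.15 (adjusted p = 0.0503), 0.51 (adjusted p = 0.0735) and -1.27 (adjusted p = 0.0692). The same held for the membrane-anchored Mmp25 (-1.46, adjusted p = 0.0753), Mmp17 (-0.20, adjusted p = 0.712) and Mmp23 (-0.10, adjusted p = 0.923). Without hyperoxia replicate 1, 4 other MMPs were lower (Mmp11, Mmp15, Mmp16 and Mmp25), of which Mmp16 had not passed the filter before. Mmp16 and Mmp25 pass through the normoxic libraries. Over all 13 libraries, Mmp16 was over the cutoff in 5 normoxic and 0 hyperoxic libraries, and Mmp25 in 6 and 1. Mmp1a, Mmp1b, Mmp7 and Mmp10 had no count in any library.

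Neutrophil markers are given beside Mmp8 and Mmp9, since both enzymes are stored in neutrophil granules. Of 10 such markers 6 were tested, and the 1 that was higher was Mmp8 itself, which belongs to the list (median log2 fold change 0.17). Higher genes made up 11.8% of all genes tested. The other 5 tested did not pass, with log2 fold changes of -0.18 for S100a8, -0.30 for S100a9, 0.02 for Cxcr2, 0.32 for Retnlg and 0.74 for Ltf. Without hyperoxia replicate 1, S100a8 was at 0.04 and Ltf at 0.95, still not past the threshold (adjusted p = 0.936 and 0.143). The summed level was 116 to 222 CPM in normoxia and 57.4 to 314 CPM in hyperoxia, lowest in hyperoxia replicate 1. None was at 0 in all libraries, but the neutrophil surface marker Ly6g had at most 3 counts in a library, and Camp and Ngp had at most 4 and 1. Their part in the Mmp8 and Mmp9 values was not tested.

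Fibroblast markers are given beside Mmp2, Mmp3, Mmp14 and the TIMPs, which mesenchymal cells are known to make. Of all genes tested, 11.8% were higher and 10.8% lower. Of 10 markers 8 were tested, 1 was higher and 3 were lower (median log2 fold change 0.03), and the summed level was 2266 to 2975 CPM in normoxia and 2077 to 2585 CPM in hyperoxia. Pdgfra, a growth factor receptor of alveolar fibroblasts, rose from 152 ± 23.5 to 348 ± 78.9 CPM. Inmt, Npnt and Scube2 fell, whereas the matrix genes Col1a2 and Dcn did not pass, with log2 fold changes of 0.12 and 0.06 (adjusted p = 0.594 and 0.859). Without hyperoxia replicate 3 the lower markers numbered 1. No fibroblast marker was at 0 in all libraries, and their part in the protease and inhibitor values was not tested.

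Activators of proMMPs and their inhibitors, a list of plasminogen system genes and proprotein convertases, held 3 higher and no lower genes among 9 tested of 12 (median log2 fold change 0.73). Among all genes tested, 11.8% were higher and 10.8% lower. Without hyperoxia replicate 1, 4 were higher, Pcsk5 added (adjusted p = 0.0471), and Plgrkt was lower (log2 fold change -0.43, adjusted p = 0.0382). Plat, tissue plasminogen activator, rose from 14.5 ± 4.10 to 83.8 ± 45.7 CPM (log2 fold change 2.53 ± 0.43), with hyperoxia replicate 1 below every normoxic library and the other 5 above. Serpine2, a secreted inhibitor of thrombin and other serine proteases, rose from 156 ± 22.8 to 260 ± 111 CPM. Plau, urokinase, did not pass (adjusted p = 0.389), nor did Furin, which activates membrane type MMPs inside the cell (adjusted p = 0.0715).

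ADAM and ADAMTS proteases, part of which TIMP3 inhibits, held 5 higher and 2 lower genes among 18 tested of 28 (median log2 fold change 0.31). The shares over all genes tested were 11.8% higher and 10.8% lower. Over the fits that left out 1 library, 4 to 6 were higher and 1 to 2 lower, and 1 was lower with the replicate block. Adamts4, an aggrecan-cleaving enzyme, rose from 0.989 ± 0.759 to 9.62 ± 4.94 CPM with no overlap between groups. It passed the filter through the hyperoxic libraries, and its normoxic libraries held 0 to 7 counts, 4 of 7 of them at or under the detection floor, so that no fold is given. Adamts2, which trims procollagen, rose from 65.2 ± 6.59 to 142 ± 16.1 CPM, also without overlap, and Adamts1 from 105 ± 14.3 to 199 ± 53.3 CPM. Adamts10, a fibrillin-binding family member, fell from 34.8 ± 8.73 to 14.5 ± 3.04 CPM. Adam17, the enzyme best known as a TIMP3 target, did not pass (log2 fold change -0.06, adjusted p = 0.816).

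Other inhibitors and surface partners of MMPs held 1 higher and 2 lower genes among 8 tested of 15 (median log2 fold change -0.11). For all genes tested these shares were 11.8% and 10.8%. Reck, a membrane-anchored MMP inhibitor, fell from 30.4 ± 7.26 to 10.8 ± 8.38 CPM (log2 fold change -1.46 ± 0.45, adjusted p = 0.0278), and 5 of 6 hyperoxic libraries were below every normoxic library. Pcolce2, an enhancer of procollagen processing that does not itself inhibit MMPs, fell from 796 ± 118 to 223 ± 29.3 CPM. Lrp1, the endocytic receptor that clears MMP and TIMP complexes, rose from 50.5 ± 7.43 to 70.5 ± 14.9 CPM (adjusted p = 0.0356). The direction of Reck was thus opposite to those of Timp1 and Timp3. Over the fits that left out 1 library, 0 to 2 genes of this list were higher and 1 to 2 lower. None was higher with limma on log CPM values. Reck was not tested where at least 10 counts were required in every library.

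Among the genes tested, those most like Timp1 in log2 CPM over the 13 libraries were Akr1b8, Nupr1, Lhfpl2, S100a6 and Cct2, with Pearson's r between 0.952 and 0.965. The 2 groups differ in Timp1, so this likeness is partly the difference between groups. Within the 6 hyperoxic libraries r was between 0.934 and 0.977, and within the 7 normoxic libraries between 0.777 and 0.973, as a description of these libraries.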

How the data were processed

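RNA of 13 mouse lung samples was profiled with the Lexogen QuantSeq 3′ kit. The deposited counts are raw, per gene symbol, and were made by the authors with kallisto (the submitters' processing notes name mm10), with the annotation and strand setting not given in the sources used here. The deposited log10 values of the authors (log10 of CPM plus 1) were used in 1 alternative only, as log2. The members and gene lists were chosen with earlier results of these data known.

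Genes were filtered with filterByExpr, which required 3.36 CPM in at least 6 libraries, leaving 12496. Counts were scaled by TMM and tested with edgeR 4.0.16 (quasi-likelihood, R 4.3.3) over all 13 libraries, with Benjamini-Hochberg adjustment over all genes tested, and the procedure was tested on simulated data. Log2 CPM used a prior count of 2. Named genes were the 10 members, other MMPs that passed the filter, up to 4 called genes of each other list with the smallest adjusted p, synapsins, and the 5 genes most like Timp1. Genes named outside that rule (Tmem198b, Col1a2, Dcn, S100a8, S100a9, Cxcr2, Retnlg, Ltf, Cldn5, Ly6g, Camp, Ngp, Adam17, Plau, Furin, Chil3, Ly6c2, Mmp16, Pcsk5, Plgrkt) were chosen after their values were seen. Alternatives were DESeq2 1.42.0, limma 3.58.1 (voom, and log CPM), other filters and scalings, a block on replicate number, the letter set as a term, and leaving out each library. Summing Timp3 with Syn3 and Mmp19 with Tmem198b, and the ratios and shares that add Syn3 or also leave out hyperoxia replicate 1, were chosen after seeing the data. Library names carry letters, B to M (5 normoxic and 3 hyperoxic libraries) and O to S (2 and 3), whose meaning the labels do not give. Gene positions and shared stretches came from GENCODE M21 (GRCm38). No 2 libraries were identical. One gene of the lists is not reported here.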

Additional observations from a re-analysis of the deposited data

Results flagged for a closer look

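Gaps between the highest or lowest library and its nearest neighbour were examined in 70 sets of libraries of 1 group, of which 13 stood out by Dixon's criterion. Chance gives about 1 in 20, or 3.5 of 70, if the sets are independent. Many of these sets share the same counts, so that number is only a rough guide. Of these 13, 5 were in hyperoxia replicate 1. Its mean correlation with the other libraries was 0.779, its Timp2 level 1616 CPM, its log2 ratio of summed inhibitors to summed proteases 3.98, its Timp2 to Mmp14 count ratio 94.2 and its Timp2 to Mmp2 count ratio 97.3, each far from the other 5 hyperoxic libraries. All of these but the correlation contain the same Timp2 counts.

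Hyperoxia replicate 3 stood apart for Mmp12, with 58.7 CPM and 31.9% of the protease counts. Among normoxic libraries, replicate 2 had a low Mmp3 level of 4.19 CPM and a high Timp1 to Mmp3 count ratio of 1.5. Normoxia replicate 5 had the smallest total, 1607111 counts, a Timp1 share of 1.65% of the inhibitor counts and a Timp1 to Mmp9 count ratio of 1.5. Normoxia replicate 6 had a Timp2 to Mmp2 count ratio of 99.3. The Timp1 values of normoxic libraries rest on at most 18 counts.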

How the results depend on the processing

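Mmp3 and Timp3 remained past the threshold under every alternative run, and so did Timp1 wherever it passed the filter. Timp2 turned from 0.26 to -0.057 without hyperoxia replicate 1, and reached 0.46 without hyperoxia replicate 3. The count of lower proteases was 2 with DESeq2, limma-voom, limma on deposited log CPM and library size scaling, where Mmp9 was added to Mmp12, and 0 with no filter or with a letter set term in the model. Higher proteases numbered 1 with limma on log CPM values. Higher inhibitors numbered 1 when at least 10 counts were required in every library, since Timp1 was then not tested. Genes past both thresholds numbered 107 higher and 85 lower under that filter, where fewer genes are tested, and 121 higher with limma on log CPM values, where the cause was not tested. The share of higher genes among calls was 52.3% as reported and 38.8% with limma on log CPM values, where the median of all genes was -0.16. Library size scaling gave 42.8% and -0.10, and Mmp19 was lost with both. Inhibitors over proteases moved from -0.16 to 0.75 with means of log2 CPM, and to 0.80 with hyperoxia replicate 1 left out as well. Leaving out each library in turn gave 1256 to 1934 higher and 1049 to 1699 lower genes, 193 to 223 and 254 to 347 past both thresholds, 2 to 3 higher and 0 to 1 lower proteases, 2 higher inhibitors and a ratio difference of -0.46 to -0.04. The highest counts of 1934 and 1699 came without hyperoxia replicate 1.

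Replicate numbers are shared between groups but did not pair the libraries: same-numbered deviations correlated at -0.33 to 0.27, over 0.1 in 1 of 6 pairs, and 1 of 6 normoxic libraries was closest to its own number. With the replicate block, 703 genes were higher and 588 lower, and 1 protease was higher, Mmp14 and Mmp19 not passing. Of the remaining results for single genes and gene lists, 665 kept their direction and call, or stayed within 1.5 times, 31 lost and 7 gained the call, and 93 counts of genes in lists moved by more. The lowest counts were those of Mmp9, Timp4 and normoxic Timp1, at most 31 in any such library.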

Other observations

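Markers of the other lung cell types are given as values, since whole lung holds them all. Of all genes tested, 11.8% were higher and 10.8% lower. Of 5 alveolar type 2 markers, 4 were lower and none higher (median log2 fold change -1.73), among them Lamp3 and Abca3. Of 7 endothelial markers, 3 were lower (Gpihbp1, Ednrb and Car4) and none higher (median -0.79), whereas without hyperoxia replicate 1, 4 were lower and Cldn5 was higher (log2 fold change 0.71, adjusted p = 0.0408), with sums of 2817 to 5041 CPM in normoxia and 1200 to 4852 CPM in hyperoxia. Of 4 mesothelial markers tested out of 5, Lrrn4 and Upk1b were lower (median -0.72), and 3 were lower without hyperoxia replicate 1. Of 6 pericyte and smooth muscle markers, Acta2 was higher and Cox4i2 lower (median -0.05). The Cox4i2 call stood at the threshold (adjusted p = 0.0489), and no marker of this list was lower in 12 of the 13 fits that left out 1 library, or with limma-voom, limma on log CPM, no filter, the replicate block or the letter set term. The replicate block also ended the Acta2 call. Of 6 alveolar type 1 markers, Rtkn2 was lower (median -0.07), a count that was 0 in 9 of the 13 fits that left out 1 library and with the replicate block, with sums of 2370 to 2664 CPM in normoxia and 2085 to 2310 CPM in hyperoxia.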
